A study of Rattus norvegicus with 20 samples.

Results

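Skeletal muscle was represented by 1 library, prepared from the pooled small RNA of the hindlimb muscle of 3 rats, out of 20 libraries in the series. It was chosen by its tissue label and compared with the other 13 tissue pools and with the mean of 3 brain hemisphere libraries, which together gave 14 other tissues. The 3 serum libraries were left out of the comparison. All animals were untreated, non-drinking male Long Evans Hooded rats at postnatal day 35, and no genotype or drug separated the tissues. Each of the 14 pools (fat, heart, kidney, large intestine, liver, lung, muscle, pancreas, skin, small intestine, spleen, stomach, testes and thymus) combined 3 animals, and the brain hemispheres were sequenced singly. Pooling leaves no measure of the spread between animals for muscle, so no p-value is given anywhere, and the intervals below cover counting error only.

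MicroRNAs (miRNAs) are short RNAs cut from hairpin precursors, and bases 2 to 8 of the mature strand, the seed, pair with target messenger RNAs. A small group, often called myomiRs, is made mainly in striated muscle: the mir-1, mir-133 and mir-206 family members lie together in paired gene loci under the control of myogenic transcription factors, mir-206 being the skeletal muscle member, while mir-208a, mir-208b and mir-499 lie inside myosin heavy chain genes. Muscle fibers are rich in mitochondria, and mir-378a lies within Ppargc1b, which encodes a coactivator of mitochondrial genes.

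The mature strands of the muscle group are shown first because they differ by few bases, which matters for how reads are divided among them. Sequences are from RefSeq (GRCr8), in lower case with the seed in capitals.
miR-133a-3p: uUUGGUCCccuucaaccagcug
miR-133b-3p: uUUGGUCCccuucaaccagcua
miR-1-3p: uGGAAUGUaaagaaguguguau
miR-1b: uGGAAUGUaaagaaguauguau
miR-206-3p: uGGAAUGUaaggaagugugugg
Counted from the 5′ end, miR-133a-3p and miR-133b-3p differed only by G22A, and miR-1-3p and miR-1b only by G17A. miR-206-3p differed from miR-1-3p by A11G, A21G and U22G. The members of each group shared 1 seed, so a read of miR-1-3p and one of miR-1b, or of the miR-133 strands, are told apart by 1 base.

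The strands of mir-378a are shown beside those of mir-3557, the name given to its antisense partner, because the mature list placed the reads under the second name.
miR-378a-3p: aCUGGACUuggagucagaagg
miR-3557-5p: gCCUUCUGacuccaaguccagu
miR-378a-5p: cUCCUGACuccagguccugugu
miR-3557-3p: aCACAGGAccuggagucaggag
The reverse complement of miR-378a-3p was contained whole in miR-3557-5p, and that of miR-378a-5p was identical to miR-3557-3p.

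A further set belongs to precursors that were higher in muscle than in most other tissues. The first 4 come from the imprinted interval between Dlk1 and Dio3, the next pair from the Hox gene clusters and the last from within Igf2.
miR-127-3p: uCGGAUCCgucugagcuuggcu
miR-411-5p: uAGUAGACcguauagcguacg
miR-493-3p: uGAAGGUCuacugugugccag
miR-540-3p: aGGUCAGAggucgauccugggc
miR-196a-5p: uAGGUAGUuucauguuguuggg
miR-196b-5p: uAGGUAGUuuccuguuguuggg
miR-483-3p: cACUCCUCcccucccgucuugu
The miR-196 strands shared their seed and differed only by A12C.

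The muscle library held 1259634 reads assigned to miRBase precursors, against 162080 to 3685761 in the other 13 pools and 388275 to 1204552 in the brain libraries. Levels are given in RPM, the reads of a precursor scaled to a common total of 1000000 precursor reads per library, so 1 library with no read of a precursor allowed a muscle level of up to 2.38 RPM. In a tissue, fewer cells of one type and less RNA per cell cannot be told apart. Of 444 precursors, 350 were detected in muscle, and 348 reached 10 reads in at least 1 of the 17 tissue libraries and were compared. One pool went against its label: the library labelled pancreas carried the hepatocyte mir-122 at 14862 RPM, beside 14726 RPM in liver, and no read of the acinar mir-216a or mir-217. Muscle itself carried its 3 markers, mir-133a, mir-206 and mir-378a, each at a higher level than any other tissue under all 4 scalings of the libraries that were tried.

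The mir-133 precursors, the mir-1 precursors and mir-206 were higher in muscle than in any other tissue, while mir-208a, mir-208b and mir-499 were higher in heart. mir-133a, which restrains smooth muscle genes and proliferation in striated muscle, stood at 68920 RPM (95% Wilson interval 68479 to 69364; 86814 reads). The other 14 tissues ran from 0 RPM, in spleen and in the library labelled pancreas, through a median of 50.1 RPM to 27262 RPM in heart. Skin followed heart at 2100 RPM, and large intestine, stomach and small intestine lay at 224, 223 and 196 RPM. Muscle was thus 2.53 times heart (exact counting interval 2.49 to 2.57), with heart and skin between it and the rest.

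Its relative mir-133b, which is made from the mir-206 locus, was listed at 1115 RPM in muscle (1405 reads), 238 RPM in heart and 51.8 RPM in skin, and at most 18.9 RPM, in stomach, elsewhere. The ratio of muscle to heart was 4.69 (3.93 to 5.63) and so larger than that of mir-133a. Within the libraries, mir-133b amounted to 1.62% of mir-133a reads in muscle (1.54 to 1.71), 0.872% in heart (0.738 to 1.03) and 2.47% in skin (1.80 to 3.38). The intervals of muscle and heart did not overlap, and that of skin lay above the muscle interval. These percentages depend on the list: in the mature list muscle had 1405 mir-133b reads and 8596 mir-133a reads. The intervals leave out how reads of strands 1 base apart were assigned, so a difference between the tissues cannot be read from them.

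mir-206, known for its part in regeneration and at the neuromuscular junction, was almost restricted to muscle in these libraries. It had 222 reads in muscle, or 176 RPM (155 to 201), 1 read in skin and 2 reads in 1 brain library. No read was found in the remaining pools, heart included, where a count of 0 allowed a muscle level at least 33.8-fold higher. mir-206 reads amounted to 15.8% of mir-133b reads in muscle (13.7 to 18.2), and the heart count of 0 against 137 mir-133b reads allowed up to 2.19%.

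Both mir-1 copies, repressors of non-muscle genes in cardiac and skeletal muscle, were at their highest in muscle but at low levels beside mir-133a. mir-1 was at 418 RPM (383 to 455; 526 reads) and mir-1b at 326 RPM (296 to 359; 411 reads). Heart had 22.6 and 48.6 RPM, skin 5.31 and 9.30 RPM, and 10 of the 14 other tissues had no mir-1 read. For mir-1 the muscle to heart ratio was 18.5 (10.7 to 35.0) and for mir-1b it was 6.71 (4.58 to 10.2). In the precursor list muscle held 165 mir-133a reads for each mir-1 read, and heart 1208. The gap was smaller in the mature list, where muscle had 8596 mir-133a reads and 464 mir-1 reads. How reads that match several mir-1 loci were counted is not given in the sources used here, so these levels and ratios are of listed reads and not of the RNA itself.

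The myosin-encoded members showed the opposite pattern to mir-206. mir-208b, inside the slow myosin gene Myh7, had 20 reads in muscle (15.9 RPM) and 2899 RPM in heart, a heart to muscle ratio of 183 (118 to 300). Testes, with 5 of 162080 reads, and thymus, with 16 of 658618, were also above muscle for mir-208b. mir-499, inside Myh7b, was at 26.2 RPM in muscle and 1236 RPM in heart, a ratio of 47.2 (33.3 to 69.1). Kidney, thymus and the library labelled pancreas, at 118, 80.5 and 54.5 RPM, brain at 30.7 RPM and fat at 30.6 RPM were also above muscle for mir-499. mir-208a, inside a cardiac myosin gene, had no read in muscle and 562 RPM in heart, which was at least 236-fold higher.

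**Figure D1:**
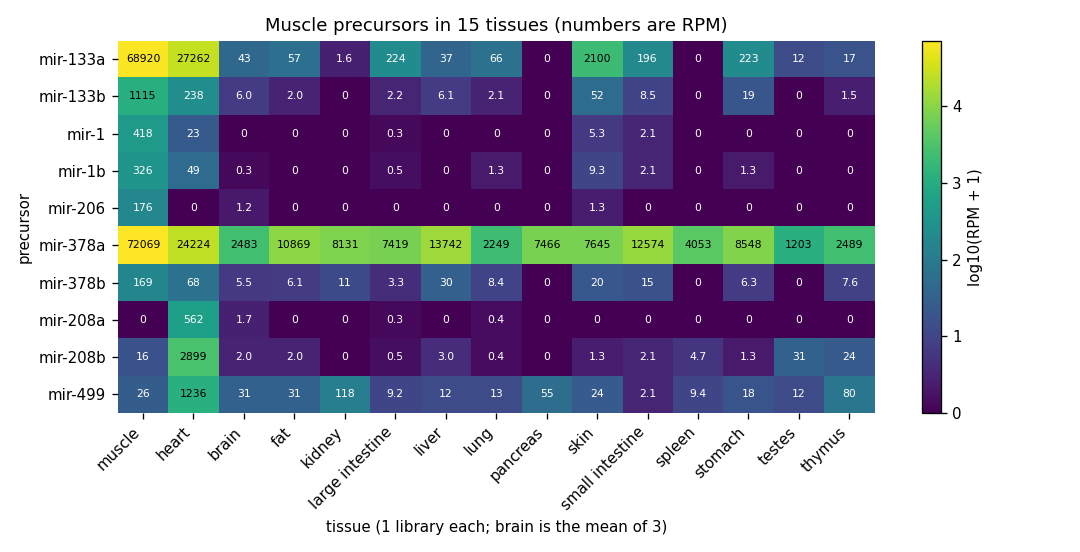
Levels of 10 muscle-related precursors (rows) in 15 tissues (columns), 1 library for each tissue except brain, which is the mean of 3; color gives log10(RPM + 1) and the printed numbers are RPM. Muscle holds the highest value in the rows from mir-133a to mir-378b, and heart in the rows of mir-208a, mir-208b and mir-499.

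Among the 7 listed muscle miRNAs, 5 were at least 2-fold above the median of the other tissues, beside a background of 35.9% (125 of 348) for all precursors compared. They were mir-133a, mir-133b, mir-1, mir-206 and, at 15.9 RPM against a median of 2.02 RPM, mir-208b. None was at least 2-fold below it, where the background was 17%. The difference used here is log2(RPM + 1) in muscle minus the median of that value over the other 14 tissues, a scale that understates differences of low precursors. Its median over the 7 members was 7.47, beside 0.35 over all 348 precursors. That overall median moved by 0.23 with TMM scaling, by -0.35 with DESeq2 size factors and by -0.22 when the most abundant precursor was taken out of each total, so differences of this size lie within the choice of scale. Together the 7 members took 7.07% of the muscle reads, 3.22% in heart and a median of 106 RPM over the other 14 tissues, with the lowest sum, 14.1 RPM, in spleen.

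mir-378a, from the list of precursors linked to mitochondrial and lipid metabolism, was the third most abundant precursor of the library at 72069 RPM (71618 to 72521). It was present in every tissue, from 1203 RPM in testes through a median of 7555 RPM to 24224 RPM in heart, and muscle was 2.98 times heart (2.92 to 3.03). Liver was next at 13742 RPM. Its relative mir-378b was far less abundant, at 169 RPM in muscle and 67.7 RPM in heart, a ratio of 2.50 (1.77 to 3.61). mir-22, a repressor of cardiac and metabolic regulators, was at 98995 RPM in muscle but higher in heart, at 141864 RPM, and muscle ranked 4 of 15.

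Of the 8 metabolic members, 5 were at least 2-fold above the median of the other tissues, beside 35.9% of all precursors, and 1 was below, near the background of 17%. The lower one was mir-33, which lies in a sterol regulator gene, at 3.97 RPM and a log2 difference of -1.05, from 5 reads, and it was not past 2-fold without the library labelled pancreas (-0.94), without brain replicate 1 (-0.91), with TMM (-0.69) or with 10 RPM added (-0.47). mir-365 was at 46.8 RPM, beside 42.7 RPM in liver, a ratio of 1.10 whose interval (0.605 to 2.13) included 1. mir-34a, a p53 target, was at 18.3 RPM and mir-455 at 40.5 RPM, both within 2-fold of the median. The list as a whole took 17.1% of muscle reads and 16.6% of heart reads.

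The mature list gave the mir-378a reads another name. miR-378a-3p was listed below 0.001 read in all 20 libraries, while miR-3557-5p had 86753 reads in muscle and was the second most abundant entry of its mature list. These reads equalled 95.6% of the mir-378a precursor reads in muscle, and 86.3% to 96.4% over the 17 tissue libraries. The mir-3557 precursor never exceeded 7.07 reads. miR-378a-5p and miR-3557-3p, whose sequences are shown above, had equal counts, within 0.001 read, in 20 of 20 libraries, with 53 reads each in muscle. In the mature list the strand of these reads therefore cannot be told, and the mir-378a results rest on the precursor list.

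Among the most abundant precursors of muscle, mir-133a, mir-378a, mir-127 and mir-10b stood far above the median of the other tissues, and several others did not. mir-10b led with 121983 RPM, or 12.2% of the reads. Its median over the other tissues lay between thymus and stomach, at 15608 and 21563 RPM, but testes had 232046 RPM and muscle ranked 5 of 15. The Hox-linked mir-10b was nevertheless 27.7 times its heart level (26.7 to 28.8). mir-143, a smooth muscle miRNA, was at 67043 RPM in muscle, below a median of 128539 RPM and far below the 611902 RPM of stomach. let-7f-1, mir-27b and mir-26a, which are broadly expressed, all lay within 2-fold of the median. The first 10 precursors held 67.3% of muscle reads. The share held by each other tissue's own first 10 ran from 53.7% in brain to 84.7% in stomach, and 7 of the 10 in muscle were also among the first 10 in heart.

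**Figure D2:**
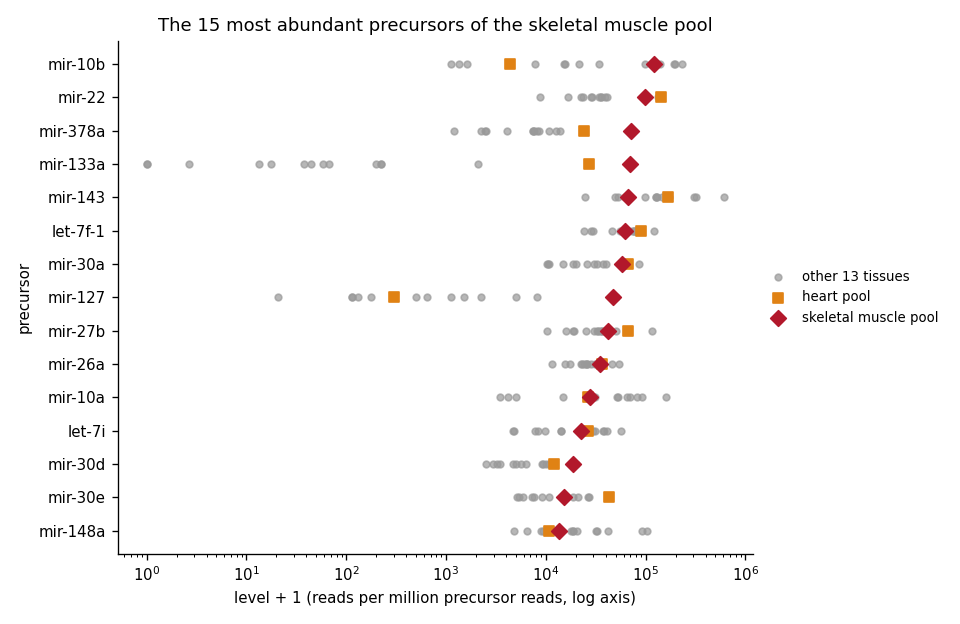
Levels (RPM + 1, log axis) of the 15 most abundant precursors of the muscle pool, in muscle (diamonds), heart (squares) and the other 13 tissues (circles). For mir-133a, mir-378a and mir-127 muscle lies above heart, at 68920, 72069 and 47227 RPM, and for mir-143 and let-7f-1 it lies among the other tissues.

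Of the 5 precursors of the mir-30 family, which is broadly expressed and high in heart and kidney, 3 were at least 2-fold above the median, beside the background of 35.9%. mir-30a was at 58583 RPM, with a log2 difference of 1.06 that was 0.93 with DESeq2 size factors and 0.88 without the most abundant precursor in the totals, which leaves 2 of 5. mir-30d was at 18900 RPM, second to lung at 20160 RPM. mir-30e was at 15362 RPM, 2.79 times lower than the 42785 RPM of heart.

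For the families that follow, the background over all precursors compared was 35.9% above and 17% below. Over the mir-15, mir-16 and mir-322 relatives, which slow the cell cycle, 6 of 10 were above and mir-15b, at 9.53 RPM, was below. The 6 above were the copies of mir-322, mir-351 and mir-503, each listed as a pair with nearly equal counts, so they are not 6 separate results. mir-351-1 was at 2602 RPM, next to 2670 RPM in lung. Among 12 let-7 precursors, let-7d and let-7e were just above 2-fold (1.22 and 1.07). Neither call held with DESeq2 size factors (0.60 and 0.63) or without the most abundant precursor in the totals (0.96 and 0.69), let-7d was at 0.995 with TMM, and let-7e was at 0.96 without the library labelled pancreas. None of the 6 mir-181 precursors was past 2-fold either way, and of the 5 mir-29 precursors compared none was above and 2 were below. These were mir-29b-2 and mir-29b-3, from 5 and 3 reads, and with 10 RPM added they were at -0.57 and -0.66. mir-29b-2 was at -0.96 without the heart pool and without the library labelled pancreas. Of the 6 precursors of the mir-23, mir-27 and mir-24 clusters, mir-23a and mir-23b were at 1.10 and 1.00 and the rest were lower. mir-23a was at 0.40 with DESeq2 size factors and 0.86 without the most abundant precursor in the totals, and mir-23b was below 1 under 5 of the 10 alternatives (0.55 to 0.997).

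**Figure D3:**
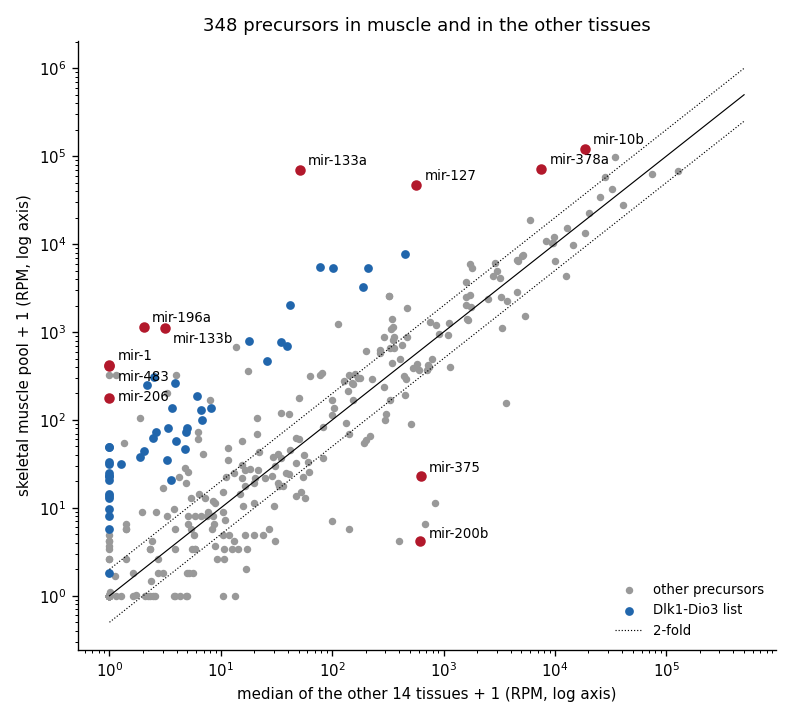
Level in the muscle pool against the median of the other 14 tissues for 348 precursors (both axes RPM + 1, log), with equality (solid line) and 2-fold (dotted lines). mir-133a stands at 68920 RPM above a median of 50.1 RPM, the Dlk1-Dio3 members lie above the upper dotted line except mir-770, and mir-200b and mir-375 lie far below the lower one.

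In all, 125 precursors were at least 2-fold above the median of the other tissues and 59 at least 2-fold below. Muscle was the highest of the 15 tissues for 32 precursors (9.2%), against 140 for brain, 35 for testes and 2 to 29 for each of the others. The count was 60 with TMM and 54 with DESeq2 size factors, and 22 of 294 when 10 reads were required in 3 libraries. Some of the 32, such as mir-206, mir-483, mir-675, mir-1193 and mir-494, passed the filter of 10 reads only through muscle. Without the library labelled pancreas 125 precursors were above, 61 below and 32 highest in muscle. Of the 32, 13 lie between Dlk1 and Dio3 and 19 elsewhere.

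The largest differences upward, among precursors highest in muscle at 100 RPM or more, were mir-133a (10.41), mir-196a (9.17), mir-1 (8.71), mir-483 (8.67), mir-133b (8.48), mir-1b (8.18) and mir-206 (7.47). They were followed by mir-540 (7.24), mir-673 (6.85) and mir-493 (6.08), all from the Dlk1-Dio3 interval. mir-483, which lies in the growth factor gene Igf2, was at 407 RPM (374 to 444; 513 reads) in muscle, 12.3 RPM in testes from 2 reads, 6.64 RPM in skin and 0 in 9 of the 14 other tissues. mir-675, cut from the neighboring imprinted RNA H19, had 28 reads in muscle (22.2 RPM), 1 in fat and none in the other 13 tissues.

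mir-196a, from the Hox clusters that pattern the hind part of the body, was at 1134 RPM in muscle (1077 to 1195), 987 RPM in fat, 710 RPM in kidney and 313 RPM in skin. The 5 tissues with no read included heart. Muscle was 1.15 times fat (1.04 to 1.28), and with DESeq2 size factors kidney (1050) was above muscle (1034). The mir-196b copies were at 325 RPM each, from the same number of reads, and large intestine was higher at 476 and 502 RPM. mir-615, another Hox cluster miRNA, was at 54.0 RPM beside 45.2 RPM in skin and 44.95 RPM in fat, with 68 reads in muscle.

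The largest differences downward were found among epithelial and neuroendocrine miRNAs. For mir-200b, a keeper of the epithelial state, muscle had 4 reads (3.18 RPM) against a median of 616 RPM and 4624 RPM in large intestine, and it ranked 15 of 15. mir-429 (5.56 RPM), mir-141 (10.3 RPM) and mir-31a (4.74 RPM) also ranked 15 of 15. mir-200a had 4 reads and ranked 13. The remaining ones were mir-375, of endocrine cells, at 22.2 RPM against a median of 624 RPM, mir-182 at 156 RPM against 3656 RPM, and the keratinocyte mir-203a at 88.9 RPM against 504 RPM. The list closed with mir-92a-2 at 53.2 RPM and mir-92a-1, of the proliferation cluster mir-17~92, at 1516 RPM against a median of 5337 RPM.

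Markers of other cell types were read over their whole lists. Beside these counts, the background over all precursors compared was 35.9% above and 17% below. Of 7 epithelial precursors compared, 6 were at least 2-fold below and 1, mir-205, was above at 106 RPM, where skin had 9133 RPM; the list summed to 219 RPM in muscle and to 88.5 to 57068 RPM elsewhere. Of 7 fibroblast and Hox-linked precursors, 6 were above, and their sum was 157345 RPM in muscle and 12105 to 360725 RPM elsewhere, mostly mir-10 reads. mir-199a was at 5932 RPM and mir-214 at 56.0 RPM, beside 7694 and 62.1 RPM in skin, so muscle carried connective tissue markers near the skin level. The mir-199a difference of 1.79 was 0.94 with DESeq2 size factors. Of 3 endothelial precursors 1, mir-221, was below at 35.7 RPM, with mir-126a at 12057 RPM beside 42495 RPM in heart. The mir-221 difference of -1.16 was -0.93 with TMM and -0.99 with 10 RPM added.

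Of 6 leukocyte precursors 1, mir-150, was above at 325 RPM and 1, mir-142, was below at 398 RPM, while spleen had 2498 and 59167 RPM. The mir-150 difference of 1.35 was 0.67 without the library labelled pancreas and 0.96 without the most abundant precursor in the totals. Both erythroid precursors were within 2-fold of the median and summed to 31.8 RPM, against 12815 RPM in spleen. All 3 gut precursors were below, with mir-192 at 1116 RPM, the lowest of 15 tissues, but with TMM none of the 3 was past 2-fold (mir-192 at -0.85, mir-194-1 at -0.80 and mir-194-2 at -0.34). The hepatocyte mir-122 had 10 reads (7.94 RPM) and a difference of 1.77, or 0.63 with 10 RPM added. In the neuron list, which also held the oligodendrocyte mir-219 and mir-338 precursors, 4 of 17 were above and 5 below, beside backgrounds of 35.9% and 17%. Of the 4, mir-138-1 (1.01) and mir-219a-1 (1.38) were at 0.20 and 0.67 with DESeq2 size factors. Of the 5, mir-129-1, mir-153, mir-9a-1 and mir-9a-3 were no longer past 2-fold with 10 RPM added (-0.18 to -0.79). The mir-124 copies had no read in muscle and 1522 to 1585 RPM in brain, while mir-128-1 was at 1219 RPM in muscle and 12452 RPM in brain. The part of any of these cells in the muscle values was not tested.

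The imprinted interval between Dlk1 and Dio3, whose miRNAs are transcribed from the maternal chromosome and are known from brain, placenta and growing muscle, gave a difference across nearly all its members between muscle and the other pools. Of 50 listed precursors, 46 were compared and 45 were at least 2-fold above the median of the other tissues, beside a background of 35.9%. The exception was mir-770, with 1 read. The median log2 difference of the 46 was 4.51. Members mir-1193 and mir-494 passed the filter of 10 reads only through muscle, so their place in this and the later counts lends no support. Muscle was above every other pool for 45 of 46, where 21.3% of all precursors were, and the exception was mir-667, with 6 reads against 1 read in testes. With 3 other scalings the count was 43 to 46. The 4 precursors that were not compared had under 10 reads in each tissue library.

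These precursors took 8.15% of the muscle reads. The share was 8.99% ± 1.30 (SD, n = 3; range 7.54% to 10.03%) in the brain libraries, 1.43% in fat, 1.12% in skin, 0.536% in testes and 0.0687% in heart, and the lowest was 0.0237% in lung. Muscle thus lay within the range of the brain libraries and above every pool. Over the 34 members with more than 3 reads in the next pool, muscle was 1.12 to 11.1 times that pool, with a median of 3.82. Over all 46 members, with no such read limit, the next pool was skin for 17, fat for 15 and testes for 8. For mir-377, mir-495 and mir-667 the testes level was 1 read, in the smallest pool.

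mir-127, which targets the imprinted gene Rtl1, made up 58.0% of the muscle reads of the list. It was at 47227 RPM in muscle, at 58038, 52379 and 39454 RPM in the 3 brain libraries, 8101 RPM in fat and 4971 RPM in skin. Heart had 302 RPM, and muscle was 156 times heart (135 to 182). Muscle lay within the brain range for mir-127, while it was above the brain mean with TMM (59023 against 30351) and with DESeq2 size factors (43049 against 17590).

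mir-411 was at 7641 RPM in muscle and at 7478, 7197 and 5339 RPM in the brain libraries. mir-541 was at 5326 RPM and at 4583, 5347 and 8260 RPM, and mir-136 at 3285 RPM and at 3684, 3626 and 3209 RPM. Only mir-411 of these was above all 3 brain libraries, and the other two lay among them. mir-410 was at 2047 RPM, below each of 3748, 3957 and 2704 RPM. mir-434-1 and mir-434-2, at 5452 and 5327 RPM, are near-identical copies whose mature reads exceeded the reads of either precursor. Both are among the 46 members counted here, although they are not separate results. mir-409a and mir-409b, at 469 and 72.0 RPM, were both at 0.975 times the brain mean and are also both counted.

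Against the 3 brain libraries, muscle was above all of them for 11 of the 46 members, within their range for 10 and below all for 25. The background of precursors above every brain library was 26.1%. With TMM the split was 25 above and 15 below, and with DESeq2 size factors 29 above and 12 below, so which tissue carried the higher level depended on the scale. The order of members within the cluster is less exposed to it, since a scale moves all members together.

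By gene order in GRCr8, 59 miRNA genes lie between Dlk1 and Dio3, and 49 of their precursors were compared. The groups that follow were formed after the values were seen. Of 6 precursors on the Dlk1 side of Rtl1, 5 were above every brain library, with a median log2 difference from the brain mean of 1.15. mir-493, at 262 RPM, was 5.97 times the brain mean of 43.9 ± 5.22 RPM (SD, n = 3), and mir-540, at 303 RPM, was 2.55 times its 119 ± 11.8 RPM. The exception was again mir-770, at 0.794 RPM beside 28.1 ± 9.36 RPM.

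Of 6 precursors within Rtl1, 1 was above, 3 within and 2 below the brain range, with a median of -0.09. The one above was mir-431, at 781 RPM beside 386 ± 52.4 RPM, and one below was mir-433, at 48.4 RPM beside 161 ± 34.4 RPM. On the Dio3 side, 24 of 37 were below every brain library, 7 within and 6 above, with a median of -1.04. A background for the share below was not counted. mir-1193, which passed the filter only through muscle, was farthest above, at 31.0 RPM beside 2.27 ± 0.453 RPM. That brain mean rests on 3, 1 and 1 reads, none above the floor of 3 reads. mir-299a was at 71.4 RPM beside 13.7 ± 1.81 RPM. mir-341 was at 776 RPM beside 2340 ± 271 RPM. The make-up of the cluster thus differed between the muscle and brain libraries, while the comparison of its total depended on the scale, as for mir-127.

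**Figure D4:**
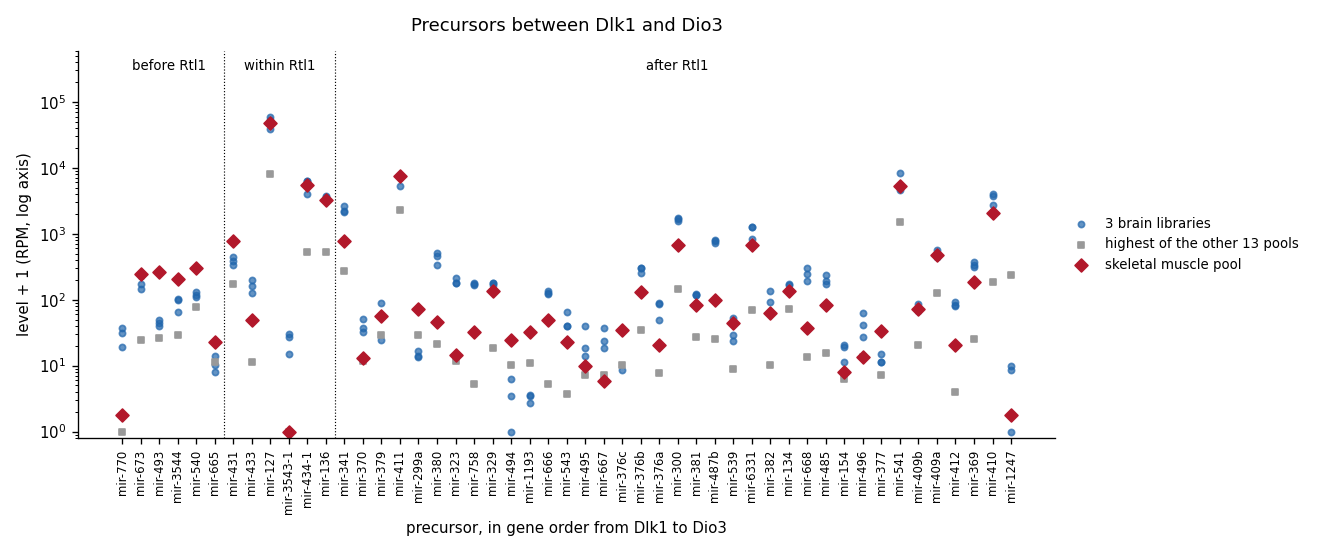
Levels (RPM + 1, log axis) of the 49 precursors between Dlk1 and Dio3, in gene order, in the muscle pool (diamonds), the 3 brain libraries (circles) and the highest of the other 13 pools (squares), with dotted lines at the ends of Rtl1. Muscle lies above every brain library for 5 of 6 precursors before Rtl1 and below every one for 24 of 37 after it, on the scale of total precursor reads (TMM and DESeq2 scaling raise muscle against brain). A background for the share below was not counted.

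Heart is the other striated muscle, and the muscle and heart pools were compared directly. Muscle was at least 2-fold higher for 112 of 348 precursors (32.2%) and at least 2-fold lower for 53 (15.2%), and the median log2 difference was 0.17. Of the 46 Dlk1-Dio3 members, 45 were at least 2-fold higher in muscle, and 26 had no read in heart. Of the 7 muscle miRNAs, 4 were higher in muscle (mir-133a, mir-133b, mir-1 and mir-206) and 3 lower (mir-208a, mir-208b and mir-499).

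Among precursors at 100 RPM or more in either pool, the largest differences toward muscle were mir-196a, the 2 mir-196b copies, mir-483 and mir-540, none of which had a read in heart. The counts allowed levels at least 218-fold (mir-196a), 62.3-fold (mir-196b-1), 78.2-fold (mir-483) and 58.2-fold (mir-540) higher in muscle. Toward heart they were mir-490, with 590 RPM in heart and no read in muscle (at least 248-fold higher), mir-208a, mir-208b, mir-3585 and mir-499. mir-3585 had 5 reads in muscle and 318 RPM in heart, a ratio of 80.0 (33.7 to 249).

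Both tissues had similar levels of many abundant precursors. The muscle to heart ratio was 1.04 for mir-10a (1.02 to 1.06), 0.938 for mir-26a (0.922 to 0.953), 0.872 for mir-30a (0.861 to 0.883) and 0.690 for let-7f-1 (0.683 to 0.698). Both smooth muscle precursors, mir-143 and mir-145, were at least 2-fold lower in muscle than in heart, mir-143 by a heart to muscle ratio of 2.49 (2.47 to 2.51). The endothelial mir-126a was 3.52 times higher in heart (3.45 to 3.60).

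**Figure D5:**
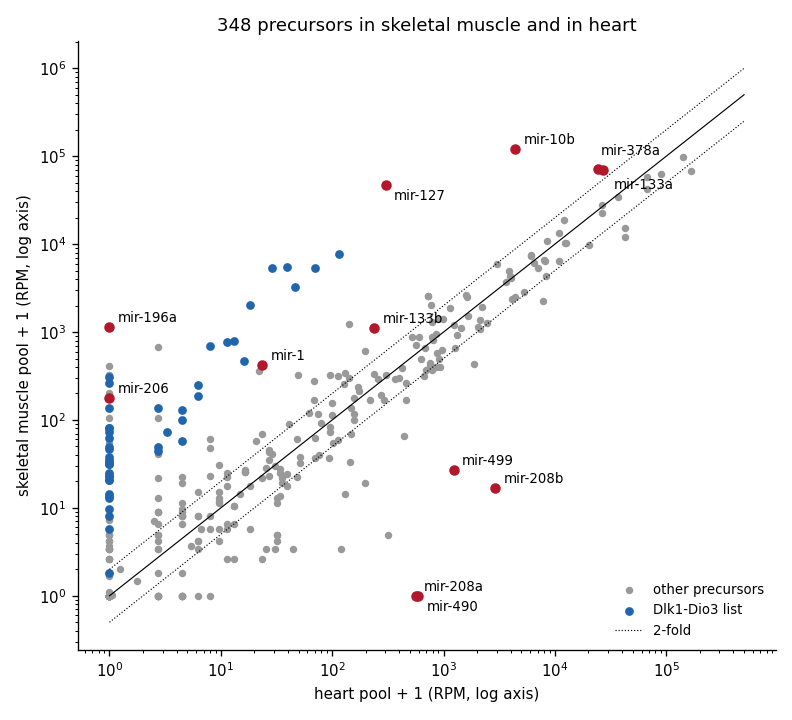
Level in the muscle pool against the heart pool for 348 precursors (both axes RPM + 1, log), with equality (solid line) and 2-fold (dotted lines). mir-196a and mir-206 and many Dlk1-Dio3 members stand at 0 in heart, mir-208a and mir-490 at 0 in muscle, and mir-133a and mir-378a lie just above the upper dotted line.

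The mature list allowed the 2 arms of each hairpin to be compared, as the 5p share of 5p plus 3p reads. Of 115 miRNAs with at least 20 reads on both arms together in muscle, 56 had over 90% of reads on the 5p arm, 31 under 10%, and 28 lay between. For 103 of them at least 3 other libraries had enough reads, and 17 (16.5%) had a muscle share outside the range of those libraries, 9 below and 8 above. In 6 of the 17 the Wilson interval of muscle was also clear of that range.

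For miR-30a the 5p share was 81.7% in muscle (81.0 to 82.3; 13698 reads) and 91.8% to 98.7% in 16 other libraries. For miR-30e it was 20.1% (18.5 to 21.8) against 25.8% to 66.1%. Both thus had a larger 3p share in muscle than in any other library compared. miR-376b of the Dlk1-Dio3 interval had a 5p share of 93.8% (88.9 to 96.6) against 49.0% to 80.0% in 4 libraries. miR-433 had 44.6% (32.4 to 57.6), from 56 reads, against 18.4% to 30.4% in the 3 brain libraries, the only others with enough reads. miR-369, at 46.6% (38.3 to 54.7) against 57.8% to 64.1%, was likewise compared with the 3 brain libraries only. For both, the contrast is with 1 other tissue. The last was miR-29a, at 2.11% (0.972 to 4.53) against 0% to 0.847%.

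The mature list did not hold all reads of each precursor, which bears on these shares. In muscle it held 99.6% of the precursor reads for mir-22, 98.9% for mir-143 and 88.4% for mir-127, but 18.6% for mir-30a, 12.2% for mir-30e, 9.90% for mir-133a and 6.10% for mir-148a. For mir-30a the other 16 libraries held 26.4% to 46.0%, all above muscle. For mir-10b, the most abundant precursor, the mature list held 0.637% in muscle and 0.409% to 2.68% elsewhere. Its RefSeq mature strand starts 2 bases later than that of its relative miR-10a-5p, as these lines show, with the seed in capitals in the first pair and the 2 hairpin bases before the mature strand in capitals in the last.
miR-10a-5p: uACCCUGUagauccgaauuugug
miR-10b-5p: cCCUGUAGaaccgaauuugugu
miR-10b-5p with the preceding hairpin bases: UAcccuguagaaccgaauuugugu
Started at those bases, the seed would be that of miR-10a-5p. Whether the start of the strand sets the low share was not tested.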

How the data were processed

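Small RNA libraries (TruSeq) of rat tissues were sequenced on a MiSeq. In the authors' processing, bases under phred 20 were cut off and reads were aligned to Rn5 with Bowtie and quantified against miRBase and RefSeq in Partek Flow or Strand NGS; versions are not given in the sources used here. The authors deposited the resulting estimated counts (expected counts, some with fractions) without normalization, in 3 stacked annotations. Rows of the miRBase 21 precursor annotation were divided by their library total and scaled to 1000000 reads (RPM). Brain was the mean of 3 libraries, and serum was left out.

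The muscle level was compared with the median of the other 14 tissues as log2(RPM + 1), and a 2-fold difference was called without a test, since 1 muscle library gives no residual spread. Precursors with at least 10 counts in 1 of 17 tissue libraries were compared. Counts were rounded for intervals: Wilson at 95% for a level, exact (Clopper-Pearson) for a ratio of 2 libraries, and a floor of 3 reads for a count of 0. Reads without molecular identifiers are not independent molecules, so these cover counting error only. Python 3.11.15, SciPy 1.17.1, R 4.3.3, edgeR 4.0.16 (TMM) and DESeq2 1.42.0 (size factors) were used. The calls were checked on simulated counts with 8-fold changes.

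Named precursors were the markers, members of the lists of muscle, metabolic and Dlk1-Dio3 miRNAs, the 15 most abundant, the 10 largest differences upward (highest in muscle, 100 RPM or more) and downward (median of 100 RPM or more elsewhere), defining members of lists for other cells, and the 5 largest differences each way from heart; mir-675, mir-615 and relatives of named members, arms outside the range and mir-10b were singled out after their values were seen. Members and lists were chosen with earlier results of these data known. RefSeq names (GRCr8) matched 421 of 444 precursors and served for sequences, hosts and gene order only.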

Additional observations from a re-analysis of the deposited data

Results flagged for a closer look

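Reads of muscle miRNAs were found in the serum libraries, which no comparison used. Over the 3 serum libraries, with 26348 precursor reads in all, mir-133a had 14 reads (0, 2 and 12), mir-1 had 9 reads (0, 1 and 8) and mir-1b had 10 reads (0, 1 and 9). These sums are above the 3 reads that a count of 0 allows, and most of them come from 1 library. mir-133b and mir-206 had no read in serum, which allowed up to 114 RPM.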

How the results depend on the processing

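No paired analysis was possible because muscle was 1 library and no result comes from a test. Against 125 precursors above the median of the other tissues, 59 below and 32 highest in muscle, the counts that moved by over 1.5 times were those highest in muscle with TMM (60) and DESeq2 size factors (54), and those below with 10 RPM added (32) and at 4-fold (23). For the 53 precursors lower in muscle than in heart, the count was 31 with 10 RPM added and 27 at 4-fold. Leaving out 1 brain library gave 125 to 126 above, 58 to 59 below, 33 to 38 highest in muscle and 45 Dlk1-Dio3 members above. Without the library labelled pancreas the counts were 125, 61 and 32. With 10 reads required in 3 libraries they were 103, 55 and 22, of 294 precursors. The share of muscle reads on the muscle miRNAs was 7.85% in the RefSeq list in place of 7.07%, and that on the first 10 was 69.9% in place of 67.3%; mir-378a was not analysed in that list. With 100 reads on both arms, 7 of 63 miRNAs were outside the range in place of 17 of 103. Taking the Dlk1-Dio3 members by position, an alternative chosen after seeing the data, 46 of 49 were above. Of 108 listed or named precursors past 2-fold, 26 were no longer past 2-fold under at least 1 of 10 alternatives. None changed sign, but this was unlikely from the start. Each was past 2-fold, and the scalings moved the overall median by only -0.35 to 0.23. Depth limits the precursors with few reads: 1 read in the smallest pool is worth more than in muscle, where 3 reads are 2.38 RPM.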
